A study of Mus musculus with 11 samples.

Results

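Cathepsins, the LAMP and LAPTM membrane proteins and the subunits of the vacuolar proton pump were followed across NRAS tumors, PDGFB tumors and normal brain of mice. The genes were chosen by symbol: cathepsins (Cts followed by 1 letter), Lamp1 to Lamp5, Laptm4a, Laptm4b and Laptm5, the subunits of the V0 and V1 sectors of the pump (symbols starting Atp6v0 or Atp6v1), and Atp6ap1 and Atp6ap2. Of 49 genes in the table with such a symbol, 39 reached 1 FPKM (fragments per kilobase of transcript, scaled to the size of the library) in at least 3 of the 11 libraries and form the members described here. The same filter passed 14491 of 24320 genes. They were 13 cathepsins, 3 LAMP genes, 3 LAPTM genes, 8 V0 subunits, 10 V1 subunits and 2 accessory proteins of the pump.

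RNA sequencing covered 4 NRAS tumors, 4 PDGFB tumors and 3 normal brains, to ask how the 2 tumor models relate to subtypes of human glioblastoma. Tumors arose after plasmids were injected into the right lateral ventricle of newborn mice. All tumors received the Sleeping Beauty (SB) transposase, firefly luciferase and the large T antigen of SV40, together with either NRASG12V, a constitutively active form of the GTPase NRAS (labelled nRas-G12V overexpression), or the growth factor PDGFB (labelled PDGFb overexpression). The normal brains are labelled WT control. Tumor tissue was dissected as the GFP+ region at a middle stage of growth, with the GFP- region taken as free of tumor. These are pieces of tissue and not sorted cells. The sample labels give strain B6 for 10 libraries and FVB for normal brain 3, whereas the series text gives FVB. Ages and brain regions are not stated in the labels. Titles match normal brain 1 to NRAS tumor 2 and normal brain 3 to PDGFB tumor 1. The labels do not say that replicates came from separate animals, so the p-values measure the spread between these libraries, which may in part be technical.

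Lysosomes are acidic organelles in which proteins, lipids and glycans taken up by endocytosis or delivered by autophagy are degraded. The V-ATPase keeps them acidic: its V1 sector in the cytosol splits ATP and turns a rotor, and its V0 sector in the membrane carries the protons. Cathepsins are the lysosomal proteases and mature at acid pH, and the heavily glycosylated LAMP proteins line the organelle's membrane. In the brain, microglia and macrophages are rich in cathepsins, while neurons also use the V-ATPase to acidify synaptic vesicles, which drives the loading of neurotransmitter.

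The plasmid genes matched the labels in every library: Nras stood at 82.00 to 154 FPKM in NRAS tumors, 31.7 to 42.9 FPKM in PDGFB tumors and 13.01 to 17.5 FPKM in normal brain, and Pdgfb at 745 to 1564 FPKM in PDGFB tumors, 5.15 to 7.80 FPKM in NRAS tumors and 6.12 to 7.19 FPKM in normal brain. Among the NRAS tumors, NRAS tumor 2 lay nearest to the mean of normal brain for 34 of the 39 members (87.2%) and for 59.9% of all genes tested, and among the PDGFB tumors, PDGFB tumor 2 lay farthest from it for 23 members (59.0%) and for 51.5% of all genes. The numbers in the sample titles fall into a lower series (normal brains 1 to 3 and NRAS tumors 1 and 2) and a higher one (NRAS tumors 3 and 4 with the 4 PDGFB tumors). What the numbers stand for is not stated in the labels, and neither series holds both PDGFB tumors and normal brain. Depth in reads is unknown. The spacing of low values gave relative depths of 0.932 to 1 in NRAS tumors and 0.850 to 0.890 in PDGFB tumors. In normal brain they were 0.776 to 0.814, so relative depth differed between the groups without overlap.

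The 3 classes of lysosomal genes moved differently. In NRAS tumors, 10 of 13 cathepsins were higher than in normal brain and none was lower, 15 of 20 V-ATPase genes were lower and 4 higher, and of the 6 LAMP and LAPTM genes 5 were higher and 1 lower. In PDGFB tumors, 5 cathepsins were higher and 2 lower, 16 V-ATPase genes were lower and 2 higher, and 1 LAMP or LAPTM gene was higher and 1 lower. Between the models, 9 cathepsins and 4 LAMP or LAPTM genes were higher in NRAS than in PDGFB tumors, while 18 of the 20 V-ATPase genes did not pass the test. These calls rest on limma at a Benjamini-Hochberg adjusted p below 0.05 over all genes tested, on the log2(FPKM + 1) scale, which understates the change of low genes. In all, 35 of 39 members (19 higher and 16 lower) were called in NRAS tumors against normal brain, where 62.3% of all genes tested were called (32% higher and 30.3% lower). PDGFB tumors against normal brain gave 27 called members (8 higher and 19 lower), where 58.5% of all genes were called (29.3% higher and 29.2% lower). NRAS against PDGFB tumors gave 16 called members (15 higher and 1 lower), where 26.6% of all genes were called (14.3% higher and 12.2% lower). The comparisons with normal brain share the 3 normal libraries, so their values stand side by side. Groups did not overlap for 35 members (89.7%) in NRAS tumors against normal brain, where the same held for 65.1% of all genes tested. In PDGFB tumors against normal brain these were 29 members (74.4%) and 65.7%, and between the models 13 (33.3%) and 24.5%. Most genes thus separated tumors from normal brain. Ctse and Ctsw passed the filter on low values only through tumors, Atp6v0d2 only through NRAS tumors, and Atp6v1c2 only through normal brain. Passing through 1 side favors a difference from the other side, though not every comparison of these 4 was called. Their fold changes are given as descriptions, without p-values. Without them, NRAS tumors against normal brain had 8 of 11 cathepsins higher and none lower, and 14 of 18 V-ATPase genes lower and 3 higher. PDGFB tumors then had 4 cathepsins higher and 2 lower and 15 V-ATPase genes lower and 2 higher. Between the models 8 cathepsins were higher and 1 lower and 1 V-ATPase gene was higher.

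The median log2 fold change over the 39 members lay near that over all genes tested in the comparisons with normal brain, at 0.02 against 0.01 in NRAS tumors and at -0.04 against 0.04 in PDGFB tumors. The classes lay on opposite sides of 0. The cathepsins had a median of 1.65 in NRAS tumors and 0.73 in PDGFB tumors, and the V-ATPase genes a median of -0.92 in NRAS tumors and -1.01 in PDGFB tumors. Between NRAS and PDGFB tumors the median was 0.39 over the members, 1.12 over the cathepsins, 0.18 over the V-ATPase genes and -0.04 over all genes tested. With NRAS tumor 2 left out, 10 cathepsins were higher and 1 lower and 15 V-ATPase genes lower and 3 higher against normal brain. The 5 higher cathepsins of PDGFB tumors became 2 without PDGFB tumor 1 or 4 or without any 1 of the normal brains. Without PDGFB tumor 3 they became 3. They also became 2 with no filter on low values and with Y-linked expression as a covariate. Mean log2 expression of Y-linked genes was 3.86 to 4.29 in NRAS tumors 2 and 4, PDGFB tumor 2 and normal brains 1 and 2. In the other libraries it was at most 0.0146. The 4 LAMP and LAPTM genes higher in NRAS than in PDGFB tumors became 2 without NRAS tumor 3 or 4 or PDGFB tumor 1 or 3.

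**Figure D1:**
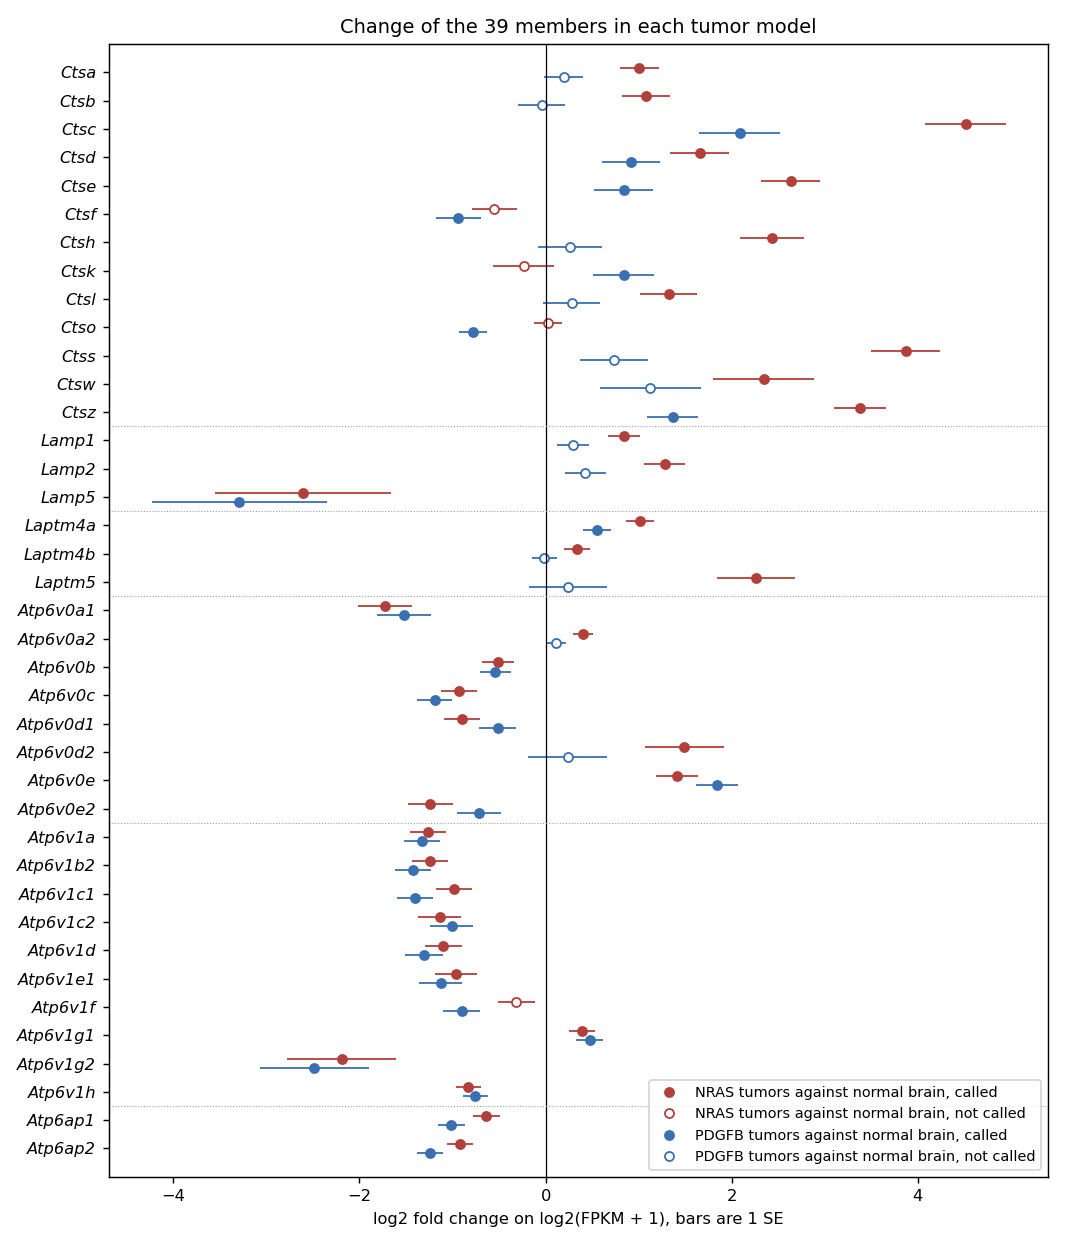
Log2 fold change of each of the 39 members on the log2(FPKM + 1) scale, for NRAS tumors against normal brain (red) and PDGFB tumors against normal brain (blue), with genes down the page by class; filled points passed the test, open points did not, and bars give 1 SE. The fold change of Ctsc in NRAS tumors is 4.51, whereas most V-ATPase genes lie below 0 in both comparisons.

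Promoter sequence was examined because lysosomal genes of different classes are known to share a short motif, the CLEAR element, which is bound by TFEB, TFE3 and MITF and contains the letters CACGTG. RefSeq promoter windows (GRCm38.p6, 250 bases before to 50 after an annotated start) were found for 28 of the 39 members, with 33 windows in all. On either strand, CACGTG, which reads the same on both, occurred in 9 of the 33 windows (27.3%), in 9.54% of the windows of all genes tested and in 7.15% of all windows. The longer TCACGTGA, which contains it, occurred in 5 of the 33 (15.2%), in 1.73% of the windows of genes tested and in 0.974% of all windows. GAGGAAGT, a site of PU.1, the myeloid transcription factor, occurred with its reverse complement in 2 of the 33 (6.06%), in 2.94% of the windows of genes tested and in 3.20% of all windows. The 9 genes with CACGTG were Atp6v0b, Atp6v0d1, Atp6v0e, Atp6v1a, Ctsa, Ctsd, Ctsf, Ctsl and Lamp1, and against normal brain 5 of them were called higher and 3 lower in NRAS tumors, and 2 higher and 4 lower in PDGFB tumors. Of all genes tested, 32% were higher and 30.3% lower in NRAS tumors, and 29.3% higher and 29.2% lower in PDGFB tumors. With 9 genes, no direction is read from these counts. The 2 genes with GAGGAAGT were Ctsc and Ctss.

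The 160 bases before an annotated start are shown for 5 genes. Lamp1 and Ctsd were higher in NRAS tumors, and Atp6v0b and Atp6v1a were lower in both tumor types, and these 4 carry the same core CACGTG, marked in capitals. Ctsc, which was higher in both tumor types, carries ACTTCCTC, the reverse complement of the PU.1 letters, also in capitals. The windows are Lamp1 at chr8:13159001-13159160 on the plus strand, Ctsd at chr7:142387828-142387987 on the minus strand, Atp6v0b at chr4:117887330-117887489 on the minus strand, Atp6v1a at chr16:44139260-44139419 on the minus strand and Ctsc at chr7:88277925-88278084 on the plus strand, each printed 5′ to 3′ on the gene's strand. A match is a description of the letters and not of binding.
Lamp1: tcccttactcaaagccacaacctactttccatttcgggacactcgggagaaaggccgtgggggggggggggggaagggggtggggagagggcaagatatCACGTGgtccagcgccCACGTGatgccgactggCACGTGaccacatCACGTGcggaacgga
Ctsd: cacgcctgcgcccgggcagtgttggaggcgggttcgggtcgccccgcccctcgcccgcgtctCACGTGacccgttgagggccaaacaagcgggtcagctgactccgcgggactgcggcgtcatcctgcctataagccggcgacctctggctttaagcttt
Atp6v0b: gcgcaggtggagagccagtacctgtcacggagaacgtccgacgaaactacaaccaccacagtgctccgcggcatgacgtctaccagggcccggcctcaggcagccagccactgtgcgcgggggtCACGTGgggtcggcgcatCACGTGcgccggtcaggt
Atp6v1a: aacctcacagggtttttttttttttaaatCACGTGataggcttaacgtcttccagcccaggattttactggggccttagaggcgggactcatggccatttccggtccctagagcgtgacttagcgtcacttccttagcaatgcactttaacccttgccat
Ctsc: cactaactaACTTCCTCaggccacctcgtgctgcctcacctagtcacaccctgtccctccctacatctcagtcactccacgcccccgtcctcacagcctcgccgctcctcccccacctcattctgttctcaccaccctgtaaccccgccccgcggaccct

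Ctss, Ctsc, Ctsz and Ctsh, which encode cysteine cathepsins, were higher in NRAS tumors. Ctss (chromosome 3, 95526786 to 95556405 in GRCm38.p6) encodes cathepsin S, an endopeptidase of microglia, macrophages and other antigen-presenting cells that trims the invariant chain of MHC class II. Its level was 910.1, 436, 1415 and 1353 FPKM in NRAS tumors 1 to 4, 106, 81.9, 89.3 and 159 FPKM in PDGFB tumors 1 to 4 and 60.9, 66.2 and 61.8 FPKM in normal brains 1 to 3. Later values per library follow the same order of libraries. All NRAS tumors were above all PDGFB tumors, and all PDGFB tumors above all normal brains, with NRAS tumor 2 the lowest of its group. The mean was 16.3 times that of normal brain in NRAS tumors, with a log2 fold change of 3.87 ± 0.37 (SE, limma adjusted p = 2.28e-05). In PDGFB tumors the log2 fold change was 0.73 ± 0.37 and did not pass the test (adjusted p = 0.109). The direct comparison of NRAS with PDGFB tumors gave 3.14 ± 0.34 (adjusted p = 0.000298). Ctss was the most abundant of the 39 members in NRAS tumors at 1028 ± 455 FPKM (mean ± SD, n = 4), but ranked 12 in PDGFB tumors at 109 ± 34.9 FPKM (n = 4) and 21 in normal brain at 62.9 ± 2.84 FPKM (n = 3).

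Ctsc (chromosome 7, 88278024 to 88315861) encodes cathepsin C, or dipeptidyl peptidase 1, which activates the serine proteases of immune cell granules. Its level was 90.6, 67.2, 358 and 149 FPKM in NRAS tumors, 24.5, 27.3, 23.3 and 21.8 FPKM in PDGFB tumors and 4.66, 4.60 and 5.59 FPKM in normal brain. The 3 groups did not overlap, and NRAS tumor 3 stood far above the next library. Ctsc had the largest log2(FPKM + 1) fold change of the members against normal brain in both tumor types, although at a pseudocount of 0.1 Ctse, at 5.44 in NRAS tumors and 2.85 in PDGFB tumors, and Ctsw, at 2.94 in PDGFB tumors, exceeded it. Its values were 4.51 ± 0.43 for NRAS tumors (adjusted p = 2.32e-05) and 2.08 ± 0.43 for PDGFB tumors (adjusted p = 0.00183), and it differed by 2.43 ± 0.40 between the models (adjusted p = 0.00198). Ctsz (chromosome 2, 174427494 to 174439039), for the carboxypeptidase cathepsin Z, was at 241, 158, 404 and 329 FPKM in NRAS tumors, 57.8, 58.9, 59.7 and 88.9 FPKM in PDGFB tumors and 25.9, 23.6 and 24.6 FPKM in normal brain, again without overlap of the groups. It was higher by 3.38 ± 0.28 for NRAS tumors (adjusted p = 8.33e-06) and by 1.36 ± 0.28 for PDGFB tumors (adjusted p = 0.00161) on the log2 scale, and the models differed by 2.01 ± 0.26 (adjusted p = 0.000639).

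Ctsh, for the aminopeptidase cathepsin H, separated the models without a called change in PDGFB tumors. It stood at 31.9, 18.3, 38.02 and 61.1 FPKM in NRAS tumors, 5.50, 5.77, 5.84 and 11.2 FPKM in PDGFB tumors and 5.85, 4.93 and 5.78 FPKM in normal brain. PDGFB tumors 1 to 3 lay within or beside the range of normal brain, and PDGFB tumor 4 lay between normal brain and the lowest NRAS tumor. Log2 fold changes were 2.44 ± 0.34 in NRAS tumors (adjusted p = 0.000228), 0.26 ± 0.34 in PDGFB tumors (adjusted p = 0.543) and 2.18 ± 0.32 between the models (adjusted p = 0.00117).

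The broadly expressed endopeptidases Ctsb and Ctsl showed smaller rises of the same kind. Ctsb averaged 283 ± 94.9 FPKM in NRAS tumors (SD, n = 4), 127 ± 30.8 FPKM in PDGFB tumors (n = 4) and 129 ± 11.6 FPKM in normal brain (n = 3), and Ctsl 161 ± 78.8, 71.8 ± 10.2 and 58.6 ± 5.79 FPKM in the same groups. NRAS tumors exceeded normal brain by 1.08 (adjusted p = 0.00412) for Ctsb and by 1.32 (adjusted p = 0.00351) for Ctsl, while PDGFB tumors gave -0.04 (adjusted p = 0.898) and 0.28 (adjusted p = 0.456), which did not pass. Between the models the differences were 1.12 (adjusted p = 0.00664) and 1.04 (adjusted p = 0.0207). The Ctsl call between the models was lost without PDGFB tumor 1 or 3. It was also lost within the higher title number series and with no filter on low values. Exons of Ctsb share 774 bases with Fdft1 on the opposite strand, and the strandedness of the libraries is not stated in the labels, so reads of the 2 genes may not have been told apart. Ctsl shares 1742 exon bases with Gm47123 on the opposite strand and 395 with the pseudogene Gm49230 on its own strand.

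Ctso, Ctsf and Ctsk departed from this pattern. Ctso averaged 14.3 ± 2.13 FPKM in NRAS tumors, 7.75 ± 1.18 FPKM in PDGFB tumors and 13.9 ± 1.10 FPKM in normal brain. It was lower in PDGFB tumors than in normal brain, with a log2 fold change of -0.78 ± 0.15 (adjusted p = 0.0013) against 0.02 ± 0.15 in NRAS tumors (adjusted p = 0.895), and all PDGFB tumors lay below all other libraries. Ctsf was lower in PDGFB tumors (-0.94 ± 0.24, adjusted p = 0.00605), at 18.2, 12.03, 18.7 and 22.9 FPKM against 37.9, 29.98 and 36.1 FPKM in normal brain. In NRAS tumors Ctsf stood at 19.5, 33.6, 25.3 and 17.5 FPKM and did not pass the test (-0.55 ± 0.24, adjusted p = 0.0657), although it was called lower once NRAS tumor 2 or PDGFB tumor 2 was left out.

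Ctsk, for cathepsin K, the collagen-cleaving protease best known from osteoclasts, was the only member called lower in NRAS than in PDGFB tumors, and without NRAS tumor 2 Atp6v0e2 was called lower as well. Its levels were low, at 1.78, 3.23, 3.47 and 2.17 FPKM in NRAS tumors, 8.09, 2.76, 8.55 and 9.09 FPKM in PDGFB tumors and 3.57, 2.54 and 3.70 FPKM in normal brain. PDGFB tumors 1, 3 and 4 lay above every other library, and PDGFB tumor 2 fell within the other groups. The log2 fold change was -1.08 ± 0.30 between NRAS and PDGFB tumors (adjusted p = 0.0241) and 0.84 ± 0.33 in PDGFB tumors against normal brain (adjusted p = 0.0467). The first call was lost on leaving out NRAS tumor 1 or 4 or PDGFB tumor 1, 3 or 4. It was also lost within the higher title number series, with the series as a covariate and with no filter on low values. The second call was lost in 15 of 20 alternative settings. Among them were the series as a covariate and every omission of a normal brain, of PDGFB tumor 1, 3 or 4 or of NRAS tumor 3 or 4.

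Of the aspartic cathepsins, Ctsd was called higher in both tumor types. Ctsd, for cathepsin D, a major lysosomal protease of most cells, measured 756, 518, 790.1 and 1152 FPKM in NRAS tumors, 501, 277, 479 and 693 FPKM in PDGFB tumors and 255, 223 and 257 FPKM in normal brain. Every tumor was above every normal brain, with PDGFB tumor 2 close to normal brain. Its log2 fold change was 1.65 ± 0.31 for NRAS tumors (adjusted p = 0.00114) and 0.92 ± 0.31 for PDGFB tumors (adjusted p = 0.0259), and the difference between the models of 0.74 ± 0.29 did not pass (adjusted p = 0.0834). The PDGFB call was lost without PDGFB tumor 1, 3 or 4 or without any 1 of the normal brains. It was also lost with no filter on low values and with the title number series or Y-linked expression as a covariate. Exons of Ctsd share 808 of 2351 bases with Gm49369 on the same strand, so some of its reads could have been assigned to that gene. Ctse, for cathepsin E of immune and epithelial cells, was at 4.42, 3.11, 10.9 and 5.12 FPKM in NRAS tumors, 1.27, 0.643, 0.374 and 1.22 FPKM in PDGFB tumors and 0.0369, 0 and 0.0377 FPKM in normal brain. The log2 fold change was 2.63 ± 0.32 for NRAS tumors, 0.84 ± 0.32 for PDGFB tumors and 1.79 ± 0.29 between the models. Each NRAS tumor lay above each PDGFB tumor, and each PDGFB tumor above each normal brain.

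The last 2 cathepsins are a serine carboxypeptidase and a protease of lymphocytes. Ctsa, for cathepsin A, which also protects other lysosomal enzymes from breakdown, averaged 84.1 ± 23.2 FPKM in NRAS tumors, 46.7 ± 9.13 FPKM in PDGFB tumors and 40.2 ± 3.80 FPKM in normal brain, with a log2 fold change of 1.01 ± 0.21 in NRAS tumors (adjusted p = 0.00198) and 0.81 ± 0.20 between the models (adjusted p = 0.0116). Its exons share 495 bases with Pltp and 324 with Neurl2 on the opposite strand. Ctsw, for cathepsin W of T and NK cells, was found at 2.10, 1.38, 6.63 and 15.8 FPKM in NRAS tumors, 1.27, 0.747, 1.94 and 1.76 FPKM in PDGFB tumors and 0.136, 0.0662 and 0.0694 FPKM in normal brain. Every tumor was above every normal brain, and the models overlapped. NRAS tumors had a log2 fold change of 2.35 ± 0.54 and PDGFB tumors one of 1.13 ± 0.54.

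By mean level, which FPKM gives per length of transcript, the most abundant members in NRAS tumors were Ctss, Ctsd at 804 ± 262 FPKM, Atp6v0c, Lamp1 at 402 ± 70.9 FPKM and Ctsb. In PDGFB tumors Ctsd led at 488 ± 170.0 FPKM, followed by Atp6v0c, Lamp1 at 272 ± 22.6 FPKM, Atp6v1g1 and Atp6v0b. In normal brain the order was Atp6v0c, Atp6v1g2 at 332 ± 13.98 FPKM, Atp6v1e1, Atp6v1b2 and Ctsd at 245 ± 19.2 FPKM (mean ± SD throughout). Thus cathepsins held 3 of the first 5 places in NRAS tumors, and V-ATPase subunits held 4 of them in normal brain. Ctss and Ctsd in NRAS tumors differed by less than their SD.

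The filter's edge lay among genes of the same kinds. Atp6v0d2 and Atp6v1c2 were included with exactly 3 libraries at 1 FPKM, namely NRAS tumors 1, 3 and 4 for Atp6v0d2 and the 3 normal brains for Atp6v1c2. Ctsg, the granule protease of neutrophils, fell short with 1 library, at 0.964, 0, 0 and 14.4 FPKM in NRAS tumors and listed at 0 in all PDGFB tumors and normal brains. The other 9 genes left out did not reach 1 FPKM in any library: the placental cathepsins Ctsj, Ctsm, Ctsq and Ctsr, listed at 0 throughout, and Lamp3, Atp6v0a4, Atp6v1b1, Atp6v1e2 and Atp6v1g3.

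**Figure D2:**
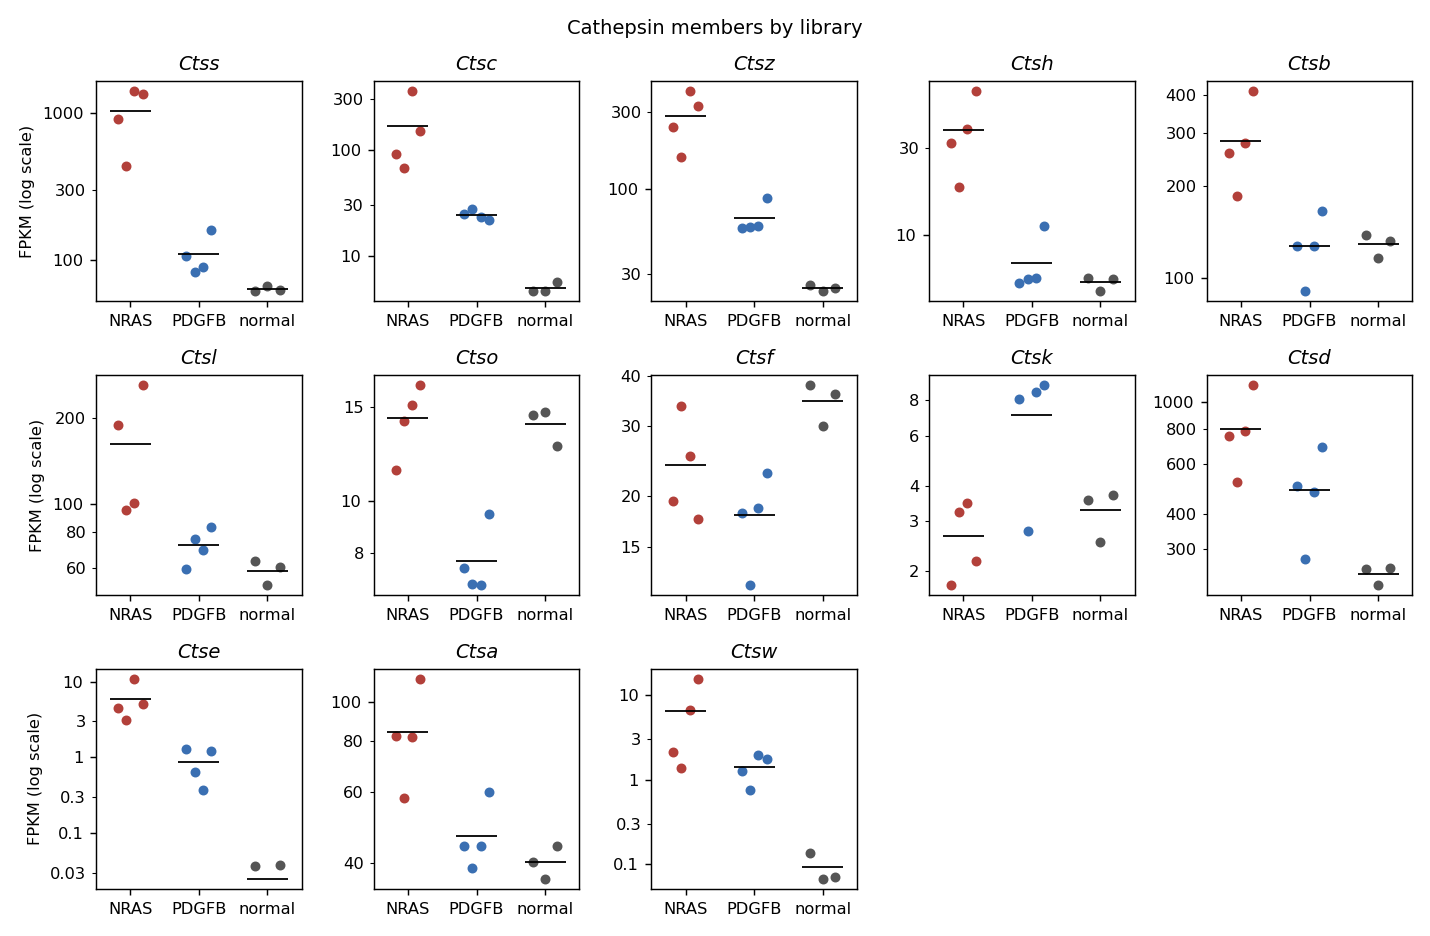
FPKM of the 13 cathepsins in each library on log axes, with NRAS tumors, PDGFB tumors and normal brain from left to right and a line at each group's mean. Ctse is listed at 0 in normal brain 2, which a log axis cannot show. Ctss, Ctsc and Ctsz separate all 3 groups, Ctsh separates NRAS tumors from the rest, and Ctsk is higher in 3 of the 4 PDGFB tumors.

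Summed over the 13 cathepsins, the level was 2597, 1590.3, 3526 and 3888 FPKM in NRAS tumors, 961, 678, 934 and 1327 FPKM in PDGFB tumors and 651, 574 and 644 FPKM in normal brain. Every tumor lay above every normal brain, and every NRAS tumor above every PDGFB tumor. The makeup of this sum also differed. Ctss gave 27.4% to 40.1% of it in NRAS tumors, 9.56% to 12.1% in PDGFB tumors and 9.36% to 11.5% in normal brain, and Ctsd gave 22.4% to 32.6% in NRAS tumors, 40.8% to 52.2% in PDGFB tumors and 38.8% to 39.98% in normal brain. Ctsb, the third large contributor, made up 7.86% to 11.6% in NRAS tumors, 12.5% to 13.6% in PDGFB tumors and 20.2% to 21.3% in normal brain. Ctsa, Ctsb, Ctsc, Ctsd, Ctsh, Ctsl, Ctss and Ctsz were called above normal brain in NRAS tumors in each of the 21 alternative settings. Within the lower title number series alone (NRAS tumors 1 and 2 against normal brain) Ctss differed by 3.30 (adjusted p = 0.00361), Ctsc by 3.74 (adjusted p = 0.000671) and Ctsz by 2.93 (adjusted p = 0.00158). Within the higher series (NRAS tumors 3 and 4 against PDGFB tumors) Ctss differed by 3.70 (adjusted p = 0.000241), Ctsc by 3.21 (adjusted p = 0.000672) and Ctsz by 2.46 (adjusted p = 0.000424). For PDGFB tumors against normal brain no series gives a value, and with the series added to the fit none of the 5 higher cathepsins was called, with Ctsc at 0.53 (adjusted p = 0.34) and Ctsz at 0.47 (adjusted p = 0.27). The series term in that fit is estimated from the NRAS tumors alone. That fit called 32.9% of all genes tested in PDGFB tumors against normal brain, in place of 58.5%.

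Markers of immune cells were measured beside the cathepsins. The summed level of 10 monocyte and macrophage markers was 111 to 1822 FPKM in NRAS tumors, 34.5 to 72.2 FPKM in PDGFB tumors and 12.9 to 14.5 FPKM in normal brain, where Chil3 was listed at 0, and 8 of the 10 were called above normal brain in NRAS tumors, whereas 1 was higher and 1 lower in PDGFB tumors. Lyz2, the lysozyme of macrophages and the most abundant of them, stood at 371, 71.1, 189 and 1546 FPKM in NRAS tumors, 25.3, 54.7, 28.8 and 54.7 FPKM in PDGFB tumors and 4.41 to 7 FPKM in normal brain. The 9 microglia markers summed to 97.9 to 179 FPKM in NRAS tumors, 39.3 to 98.4 FPKM in PDGFB tumors and 87.0 to 109 FPKM in normal brain, with 3 called higher and 1 lower in NRAS tumors and 1 higher and 3 lower in PDGFB tumors. The 11 T and NK cell markers summed to 12.1 to 304 FPKM in NRAS tumors, 0.673 to 2.21 FPKM in PDGFB tumors and 1.77 to 7.17 FPKM in normal brain, where Cd3d, Cd3e and Gzmb were at 0, and of the 9 tested 8 were higher in NRAS tumors and 1 was lower in PDGFB tumors. Mast cell markers (5) summed to 16.3 to 35.2 FPKM, 0 to 0.383 FPKM and 0 to 0.404 FPKM in the same groups, with Cpa3, Mcpt4 and Tpsb2 at 0 in normal brain and Mcpt4 at 0 in PDGFB tumors. Neutrophil markers (8 in the table) summed to 10.8 to 64.9 FPKM, 2.67 to 5.88 FPKM and 2.67 to 3.67 FPKM, with Elane at 0 in every library and Camp at 0 in PDGFB tumors. Dendritic cell markers (7) summed to 12.8 to 30.7 FPKM, 1.97 to 3.36 FPKM and 5.95 to 7.56 FPKM, and B cell markers (5) to 0.987 to 6.29 FPKM, 0.233 to 2.72 FPKM and 0.456 to 0.866 FPKM, with Pax5 at 0 in PDGFB tumors. Of 4 dendritic cell markers tested, 2 were higher in NRAS tumors and 2 lower in PDGFB tumors, and no tested marker of mast cells, neutrophils or B cells was called in PDGFB tumors. In NRAS tumors 80% of macrophage, 88.9% of T and NK cell and 33.3% of microglia markers tested were called higher. Of all genes, 32% were higher there, and 29.3% were higher and 29.2% lower in PDGFB tumors. In every normal brain, 5 of the 10 macrophage and 8 of the 9 T and NK cell markers tested were below 1 FPKM. They passed the filter only through tumors. The same held for the dendritic cell markers Ccl22 and Ccr7 and the neutrophil markers Retnlg, S100a8 and S100a9. It also held for the B cell markers Cd79a and Cd79b and for every mast cell marker, so the filter favored such calls against normal brain. The part of these cells in the cathepsin result was not tested. In bulk tissue, more cells of a type and more RNA per cell cannot be told apart.

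**Figure D3:**
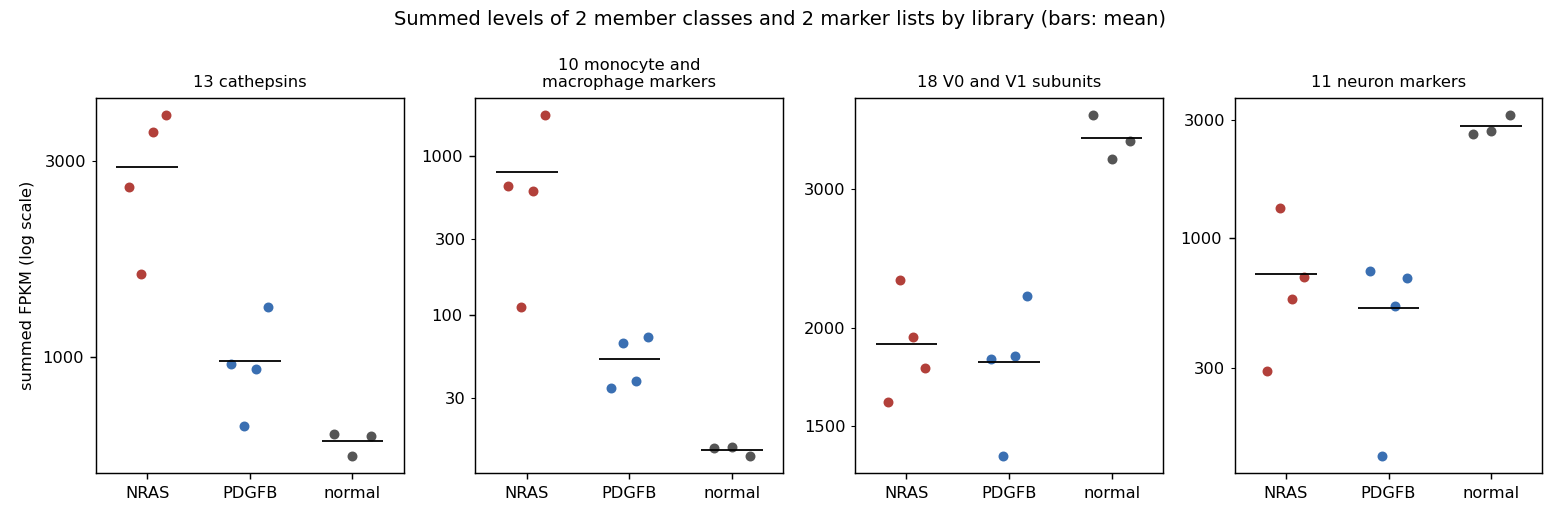
Summed FPKM of the 13 cathepsins, 10 monocyte and macrophage markers, 18 V0 and V1 subunits and 11 neuron markers in each library, on log axes with a line at each group's mean. Cathepsins and macrophage markers are lowest in normal brain, where V0 and V1 subunits and neuron markers are highest, and NRAS tumor 2 is the NRAS tumor nearest to normal brain in all 4 panels.

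The enzymes and inhibitors that work beside the cathepsins were examined as lists. Of 42 soluble lysosomal hydrolases and their cofactors, 26 were higher and 4 lower in NRAS tumors relative to normal brain, 16 higher and 12 lower in PDGFB tumors, and 22 higher and 1 lower in NRAS than in PDGFB tumors. As a share of the list these were 61.9% higher and 9.52% lower in NRAS tumors, 38.1% higher and 28.6% lower in PDGFB tumors and 52.4% higher and 2.38% lower between the models. All-gene shares were 32% and 30.3%, 29.3% and 29.2%, and 14.3% and 12.2%. The lower calls in PDGFB tumors were thus near the background. Grn, for progranulin, which cells cut into granulins in the lysosome, averaged 175 ± 73.4 FPKM in NRAS tumors, 54.1 ± 7.59 FPKM in PDGFB tumors and 25.5 ± 1.48 FPKM in normal brain, with log2 fold changes of 2.62 for NRAS tumors (adjusted p = 5.55e-05) and 1.05 for PDGFB tumors (adjusted p = 0.00897). Gusb, for beta-glucuronidase, rose by 2.33 on the log2 scale in NRAS tumors (adjusted p = 2.34e-05) and by 1.81 in PDGFB tumors (adjusted p = 9.63e-05). Hyal1, a hyaluronidase, was higher in NRAS tumors (1.21, adjusted p = 0.00554) and lower in PDGFB tumors (-0.77, adjusted p = 0.0496), and the models differed by 1.98 (adjusted p = 0.00109). Ids, the sulfatase that is lost in Hunter syndrome, fell by 1.91 in NRAS tumors and by 1.86 in PDGFB tumors on the log2 scale (adjusted p = 0.000285 and 0.0003).

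Among 10 inhibitors of cathepsins, 6 were expressed enough to be tested. Of these, 3 were higher and 1 lower in NRAS tumors, and 1 higher and 2 lower in PDGFB tumors. Between the models, 4 were higher in NRAS tumors. These are 50% higher and 16.7% lower in NRAS tumors, 16.7% higher and 33.3% lower in PDGFB tumors and 66.7% higher between the models. Shares of all genes were 32% and 30.3%, 29.3% and 29.2%, and 14.3% and 12.2%. Cst7, like Gpnmb, Slc15a3 and Tfec among the genes named below, was under 1 FPKM in every normal brain and passed the filter only through tumors, so no p-value against normal brain is given. Cst7, for cystatin F, an inhibitor of cathepsin C and others in immune cells, was at 29.4, 14.4, 82.04 and 51.7 FPKM in NRAS tumors, 4.62, 3.16, 7.09 and 6.63 FPKM in PDGFB tumors and 0.0885, 0 and 0.271 FPKM in normal brain. The groups did not overlap, and the log2 fold change was 5.08 ± 0.47 in NRAS tumors, 2.47 ± 0.47 in PDGFB tumors and 2.62 ± 0.43 between the models (adjusted p = 0.00206). Serpina3g, an intracellular serpin, was higher in NRAS tumors by 3.17 (adjusted p = 0.00237), and Serpinb1a, an inhibitor of neutrophil proteases and cathepsins, was lower, at -1.31 for NRAS tumors (adjusted p = 0.00746) and -2.42 for PDGFB tumors (adjusted p = 0.000241).

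Lamp1 and Lamp2, the major glycoproteins of the lysosomal membrane in most cells, were higher in NRAS tumors, and Lamp5, a neuronal member of the family, was lower in both tumor types. Lamp1 stood at 383, 314, 428 and 481 FPKM in NRAS tumors, 256, 293, 249 and 289.8 FPKM in PDGFB tumors and 249.6, 183 and 235 FPKM in normal brain. Lamp2, an X-linked gene that also serves chaperone-mediated autophagy, stood at 106, 68.02, 136 and 126 FPKM in NRAS tumors, 55.1, 76.7, 52.8 and 50.8 FPKM in PDGFB tumors and 42.96, 42.1 and 43.6 FPKM in normal brain. For Lamp1 all NRAS tumors lay above all other libraries, and for Lamp2 NRAS tumor 2 lay below PDGFB tumor 2. The log2 fold change in NRAS tumors was 0.84 ± 0.17 for Lamp1 (adjusted p = 0.00176) and 1.28 ± 0.22 for Lamp2 (adjusted p = 0.000723). PDGFB tumors gave 0.30 ± 0.17 (adjusted p = 0.163) and 0.43 ± 0.22 (adjusted p = 0.121), which did not pass, although every PDGFB tumor was above normal brain for Lamp2. Between the models the differences were 0.55 ± 0.16 (adjusted p = 0.0275) and 0.85 ± 0.21 (adjusted p = 0.012). The Lamp1 call between the models was lost without NRAS tumor 3 or 4 or PDGFB tumor 1 or 3, and within the lower title number series its difference from normal brain was 0.65 (adjusted p = 0.0657).

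Lamp5 (chromosome 2, 136052025 to 136069917) stood at 1.95, 39.03, 2.95 and 18.7 FPKM in NRAS tumors, 7.49, 0.591, 5.13 and 15.7 FPKM in PDGFB tumors and 42.03, 49.8 and 95.6 FPKM in normal brain. All tumors were below all normal brains, but the tumors of each model spread widely, with NRAS tumor 2 next to normal brain. The log2 fold change was -2.60 ± 0.94 for NRAS tumors (adjusted p = 0.0322) and -3.29 ± 0.94 for PDGFB tumors (adjusted p = 0.0113), the largest falls among the members, and the models did not pass a test of difference (0.68 ± 0.87, adjusted p = 0.606). The NRAS call was lost without NRAS tumor 1 or 3 or any 1 normal brain, and within the lower title number series it was -2.45 (adjusted p = 0.11). The same call was lost with the series as a covariate and with no filter on low values.

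Of the LAPTM genes, which encode small membrane proteins of late endosomes and lysosomes, Laptm5 of blood-derived cells changed most. Laptm5 (chromosome 4, 130912890 to 130936148) stood at 40.5, 29.7, 95.5 and 95.2 FPKM in NRAS tumors, 16.1, 7.43, 13.1 and 20.4 FPKM in PDGFB tumors and 11.6, 10.6 and 11.7 FPKM in normal brain. All NRAS tumors were above all other libraries, and the PDGFB tumors lay on both sides of normal brain. The log2 fold change was 2.26 ± 0.42 in NRAS tumors (adjusted p = 0.000993), 0.24 ± 0.42 in PDGFB tumors (adjusted p = 0.647) and 2.02 ± 0.39 between the models (adjusted p = 0.00398). Laptm4a, expressed in most tissues, stood at 204, 184, 265 and 232 FPKM in NRAS tumors, 138, 169, 159 and 175 FPKM in PDGFB tumors and 120.1, 107 and 99.3 FPKM in normal brain, with no overlap of the groups. It was higher by 1.01 ± 0.15 for NRAS tumors (adjusted p = 0.000294) and by 0.55 ± 0.15 for PDGFB tumors (adjusted p = 0.00803), and the models differed by 0.46 ± 0.14 (adjusted p = 0.0313), a call lost without NRAS tumor 3 or 4 or PDGFB tumor 1, 2 or 3. That call was also lost with the replicate number as a block and with Y-linked expression as a covariate. Laptm4b averaged 61.8 ± 2.34 FPKM in NRAS tumors, 48.4 ± 6.56 FPKM in PDGFB tumors and 48.98 ± 8.22 FPKM in normal brain, and its call in NRAS tumors (0.34 ± 0.14, adjusted p = 0.0495) was lost in 17 of 21 alternative settings, including the omission of any NRAS tumor, of PDGFB tumor 2 or 3, or of normal brain 2 or 3.

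Of 30 other lysosomal membrane proteins, 10 were higher and 7 lower in NRAS tumors, 6 higher and 9 lower in PDGFB tumors, and 13 higher and 1 lower in NRAS than in PDGFB tumors. These are 33.3% higher and 23.3% lower in NRAS tumors, 20% higher and 30% lower in PDGFB tumors and 43.3% higher and 3.33% lower between the models. Against normal brain none of these shares lay above the share of all genes by more than 2 percentage points. Cd63, a tetraspanin of late endosomes and exosomes, averaged 582 ± 96.5 FPKM in NRAS tumors, 273 ± 49.7 FPKM in PDGFB tumors and 74.7 ± 12.5 FPKM in normal brain, with log2 fold changes of 2.94 (adjusted p = 2.63e-06) and 1.85 (adjusted p = 3.57e-05). Gpnmb, a glycoprotein of lipid-laden macrophages and melanocytes, was at 42.5, 13.2, 14.6 and 23.2 FPKM in NRAS tumors, 4.14, 6.25, 3.36 and 5.26 FPKM in PDGFB tumors and 0.178, 0.444 and 0.344 FPKM in normal brain. The change was 4.06 on the log2 scale for NRAS tumors and 2.10 for PDGFB tumors. Slc15a3, a peptide and histidine transporter of immune cells, had a log2 fold change of 3.34 in NRAS tumors and differed by 2.34 between the models (adjusted p = 0.00283).

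The V-ATPase genes went the other way. In NRAS tumors 5 of 8 V0 subunits, 8 of 10 V1 subunits and both accessory proteins were lower than in normal brain, and in PDGFB tumors 5 V0 subunits, 9 V1 subunits and both accessory proteins, counting Atp6v1c2 among the V1 subunits. Of all genes tested, 30.3% were lower in NRAS tumors and 29.2% in PDGFB tumors. The summed level of the 18 V0 and V1 subunits was 1608, 2299, 1948 and 1775 FPKM in NRAS tumors, 1826, 1374, 1839.9 and 2197 FPKM in PDGFB tumors and 3729, 3280.4 and 3453 FPKM in normal brain. Every tumor lay below every normal brain, and the models overlapped. With the title number series added to the fit, 9 of the 20 V-ATPase genes were lower and 1 higher in PDGFB tumors, and 14 were lower and 3 higher in NRAS tumors. That fit also called fewer of all genes. In PDGFB tumors 32.9% were called in place of 58.5%, with 2305 lower and 2463 higher. In NRAS tumors 49.8% were called in place of 62.3%, with 3458 lower and 3761 higher. The ratio of summed cathepsin to summed V0 and V1 FPKM was 0.692 to 2.19 in NRAS tumors, 0.494 to 0.604 in PDGFB tumors and 0.174 to 0.186 in normal brain, and the 3 groups did not overlap.

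In the V1 sector, where subunits A and B form the ring that splits ATP, the main forms fell together. Atp6v1a, the catalytic subunit A, stood at 57.01, 93.2, 74.1 and 65.6 FPKM in NRAS tumors, 86.7, 55.5, 75.99 and 58.9 FPKM in PDGFB tumors and 175, 186 and 158 FPKM in normal brain. Atp6v1b2, the subunit B form of most tissues, stood at 105, 155, 143 and 109.8 FPKM in NRAS tumors, 135, 80.4, 119 and 118 FPKM in PDGFB tumors and 318, 295 and 286 FPKM in normal brain. All tumors lay below all normal brains for both. Log2 fold changes of Atp6v1a were -1.26 ± 0.19 for NRAS tumors (adjusted p = 0.000344) and -1.33 ± 0.19 for PDGFB tumors (adjusted p = 0.000239), and those of Atp6v1b2 were -1.24 ± 0.19 (adjusted p = 0.000391) and -1.42 ± 0.19 (adjusted p = 0.000162). The stalk and rotor subunits Atp6v1c1, Atp6v1d, Atp6v1e1 and Atp6v1h were also lower in both, with log2 fold changes of -0.83 to -1.10 in NRAS tumors and -0.75 to -1.40 in PDGFB tumors. Atp6v1c2, a form of subunit C known from epithelia such as kidney and lung, was near the filter's edge at 0.123, 0.870, 0.382 and 0.387 FPKM in NRAS tumors, 0.481, 0.0945, 0.991 and 0.776 FPKM in PDGFB tumors and 1.92, 2.56 and 1.91 FPKM in normal brain, and passed the filter only through normal brain.

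Atp6v1f, a small rotor subunit, was the only V1 member called between the models. It stood at 132, 139, 144 and 150.3 FPKM in NRAS tumors, 86.3, 67.8, 95.9 and 137 FPKM in PDGFB tumors and 202, 162 and 167 FPKM in normal brain. PDGFB tumor 4 lay within the range of the NRAS tumors. PDGFB tumors were lower than normal brain (-0.90 ± 0.20, adjusted p = 0.00258), NRAS tumors gave -0.32 ± 0.20 (adjusted p = 0.186), and the models differed by 0.59 ± 0.18 (adjusted p = 0.0363). This last call was lost without NRAS tumor 2, 3 or 4, PDGFB tumor 1, 2 or 3, or normal brain 2 or 3. It was also lost within the higher title number series, with the series as a covariate and with no filter on low values.

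In the V0 sector, the proteolipids that form the rotating ring were abundant and lower in tumors. Atp6v0c averaged 439 ± 63.95 FPKM in NRAS tumors, 368 ± 68.2 FPKM in PDGFB tumors and 833 ± 93.5 FPKM in normal brain, where it was the most abundant member, with log2 fold changes of -0.93 (adjusted p = 0.00178) and -1.19 (adjusted p = 0.000424). The genome holds the pseudogenes Atp6v0c-ps1 and Atp6v0c-ps2, with which reads of Atp6v0c could have been shared. Atp6v0b had smaller log2 fold changes of -0.51 for NRAS tumors (adjusted p = 0.0215) and -0.54 for PDGFB tumors (adjusted p = 0.0175). The NRAS call for Atp6v0b was lost without NRAS tumor 1 or 4 or normal brain 1 or 3, and the PDGFB call without normal brain 1. Atp6v0d1, the common form of the subunit that joins the ring to the rotor, was lower, at -0.90 for NRAS tumors (adjusted p = 0.00257) and -0.51 for PDGFB tumors (adjusted p = 0.0426), the second call being lost without NRAS tumor 3, PDGFB tumor 1, 2 or 3, or normal brain 1 or 3. This PDGFB call of Atp6v0d1 was also lost with no filter on low values, the replicate number as a block or the title number series as a covariate.

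Its paralog Atp6v0d2, known from osteoclasts and macrophages, stood at 5.11, 0.225, 1.24 and 2.86 FPKM in NRAS tumors, 0.0863, 0.424, 0.142 and 0.137 FPKM in PDGFB tumors and 0, 0 and 0.0315 FPKM in normal brain. NRAS tumors 1, 3 and 4 were the only libraries above 1 FPKM and alone brought the gene past the filter. NRAS tumor 2 lay among the PDGFB tumors. Its log2 fold change was 1.49 ± 0.42 in NRAS tumors and 1.25 ± 0.39 between the models. The 5 osteoclast markers, led by Acp5, which macrophages also express, summed to 10.1 to 55.5 FPKM in NRAS tumors, 2.12 to 4.31 FPKM in PDGFB tumors and 1.56 to 3.62 FPKM in normal brain, with Ocstamp at 0 in normal brain, and their part in the Atp6v0d2 result was not tested.

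Both accessory proteins were lower in both tumor types. Atp6ap1, or Ac45, which helps assemble V0, stood at 117, 159, 128 and 157 FPKM in NRAS tumors, 112, 93.9, 105 and 119 FPKM in PDGFB tumors and 234, 197 and 221 FPKM in normal brain. Atp6ap2, the (pro)renin receptor, stood at 68.4, 87.4, 88.3 and 90.9 FPKM in NRAS tumors, 77.6, 56.4, 66.3 and 67.2 FPKM in PDGFB tumors and 168, 149 and 158 FPKM in normal brain. No tumor overlapped normal brain for either gene. Log2 fold changes of Atp6ap1 were -0.64 ± 0.14 for NRAS tumors (adjusted p = 0.00292) and -1.01 ± 0.14 for PDGFB tumors (adjusted p = 0.000213), and those of Atp6ap2 were -0.92 ± 0.14 (adjusted p = 0.000322) and -1.24 ± 0.14 (adjusted p = 5.25e-05). Both genes lie on the X chromosome, and all 4 calls held with Y-linked expression as a covariate.

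**Figure D4:**
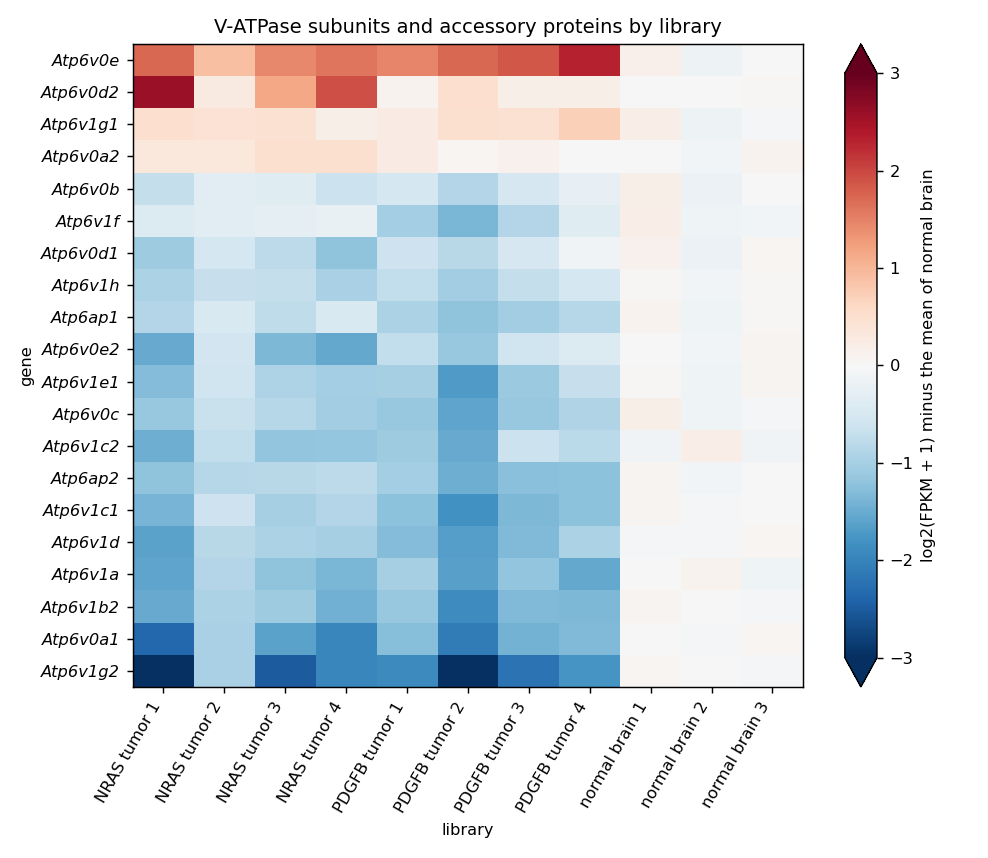
Heat map of the 20 V-ATPase genes (rows) in each library (columns, NRAS tumors, PDGFB tumors and normal brain from left to right), with color giving log2(FPKM + 1) minus the mean of normal brain and the darkest colors standing for 3 or more in either direction. Most rows are below normal brain in all 8 tumors, Atp6v0e is above it in all 8, and Atp6v0d2 is highest in NRAS tumors 1, 3 and 4.

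The V-ATPase genes called higher in NRAS tumors (Atp6v0a2, Atp6v0e, Atp6v1g1 and Atp6v0d2) are each a paralog of one called lower (Atp6v0a1, Atp6v0e2, Atp6v1g2 and Atp6v0d1). Atp6v0d2 passed the filter only through NRAS tumors, and its share was not tested. In PDGFB tumors Atp6v0e and Atp6v1g1 were the 2 called higher. Atp6v0e (chromosome 17, 26676396 to 26699647), the widely expressed form of subunit e, stood at 92.7, 52.2, 76.8 and 85.8 FPKM in NRAS tumors, 78.6, 93.3, 102 and 141 FPKM in PDGFB tumors and 30.9, 24.6 and 27.8 FPKM in normal brain. Its paralog Atp6v0e2, enriched in brain, stood at 73.4, 142, 81.9 and 72.1 FPKM in NRAS tumors, 127, 94.6, 139 and 159 FPKM in PDGFB tumors and 212, 197 and 222 FPKM in normal brain. Every tumor was above normal brain for Atp6v0e and below it for Atp6v0e2. Log2 fold changes of Atp6v0e were 1.41 ± 0.22 for NRAS tumors (adjusted p = 0.000424) and 1.84 ± 0.22 for PDGFB tumors (adjusted p = 8.58e-05). For Atp6v0e2 they were -1.24 ± 0.24 (adjusted p = 0.00129) and -0.72 ± 0.24 (adjusted p = 0.0238), the second lost without PDGFB tumor 2 or normal brain 1 or 3. That call was also lost with no filter on low values and with the replicate number as a block. With the title number series added to the fit, PDGFB tumors differed by 1.62 (adjusted p = 0.0116) for Atp6v0e and by -0.31 (adjusted p = 0.546) for Atp6v0e2, which was no longer called.

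Subunit G of the V1 stalk showed the same division. Atp6v1g2 (chromosome 17, 35234931 to 35238767), the neuronal form, stood at 31.8, 169, 57.5 and 85.00 FPKM in NRAS tumors, 88.1, 19.2, 70.5 and 96.1 FPKM in PDGFB tumors and 344, 335 and 316 FPKM in normal brain. The widely expressed Atp6v1g1 stood at 170.4, 162, 164 and 136 FPKM in NRAS tumors, 142, 168, 165 and 196 FPKM in PDGFB tumors and 138, 108 and 115 FPKM in normal brain. All tumors were well below normal brain for Atp6v1g2, with NRAS tumor 2 nearest to it, and only NRAS tumor 4 reached down into the range of normal brain for Atp6v1g1. Atp6v1g2 had log2 fold changes of -2.19 ± 0.58 for NRAS tumors (adjusted p = 0.00739) and -2.48 ± 0.58 for PDGFB tumors (adjusted p = 0.00382), the largest falls among V-ATPase genes. Atp6v1g1 was higher by 0.39 ± 0.14 (adjusted p = 0.0333) and 0.47 ± 0.14 (adjusted p = 0.0149). The NRAS call of Atp6v1g1 was lost without NRAS tumor 1, 2 or 3 or normal brain 2 or 3, and its PDGFB call without normal brain 2 or 3. Exons of Atp6v1g2 share 144 bases with Nfkbil1 on the opposite strand.

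Subunit a, which carries the channels for protons and sets where the pump goes, has several forms. Atp6v0a1 encodes a1, which is enriched at synapses, and Atp6v0a2 encodes a2 of the Golgi and endosomes. Atp6v0a1 (chromosome 11, 101009422 to 101063719) stood at 25.8, 68.7, 44.2 and 34.3 FPKM in NRAS tumors, 55.8, 31.3, 50.4 and 53.97 FPKM in PDGFB tumors and 134, 133 and 141 FPKM in normal brain. Atp6v0a2 stood at 25.6, 25.6, 28.9 and 28.9 FPKM in NRAS tumors, 24.4, 21.2, 22.2 and 20.5 FPKM in PDGFB tumors and 20.2, 18.96 and 21.8 FPKM in normal brain. Every tumor had less Atp6v0a1 than any normal brain, while Atp6v0a2 was within a narrow range. Atp6v0a1 was lower, at -1.72 ± 0.29 for NRAS tumors (adjusted p = 0.00061) and -1.52 ± 0.29 for PDGFB tumors (adjusted p = 0.00116). Atp6v0a2 was higher by 0.41 ± 0.11 in NRAS tumors (adjusted p = 0.00728) and gave 0.11 ± 0.11 in PDGFB tumors (adjusted p = 0.393). Its NRAS call was lost within the lower title number series at 0.32 (adjusted p = 0.102), with that series as a covariate (adjusted p = 0.0562) and with small RNA genes left out (adjusted p = 0.109). The lysosomal and osteoclast form a3 is encoded by Tcirg1, whose symbol is outside the rule, and stood at 38.9, 16.3, 61.7 and 55.4 FPKM in NRAS tumors, 7.97, 15.01, 7.33 and 10.6 FPKM in PDGFB tumors and 5.87, 5.84 and 6.05 FPKM in normal brain, with a log2 fold change of 2.51 in NRAS tumors (adjusted p = 0.000367) and 1.87 between the models (adjusted p = 0.00406).

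As a share of each pair, which does not depend on the scaling of a library, Atp6v0a1 made up 50.2%, 72.9%, 60.4% and 54.2% of Atp6v0a1 and Atp6v0a2 in NRAS tumors, 69.6%, 59.6%, 69.4% and 72.5% in PDGFB tumors and 86.9%, 87.6% and 86.6% in normal brain. Atp6v0e2 made up 44.2%, 73.1%, 51.6% and 45.7% of Atp6v0e and Atp6v0e2 in NRAS tumors, 61.7%, 50.3%, 57.6% and 53.0% in PDGFB tumors and 87.3%, 88.9% and 88.9% in normal brain. Atp6v1g2 made up 15.7%, 51.1%, 26.0% and 38.5% of Atp6v1g1 and Atp6v1g2 in NRAS tumors, 38.3%, 10.2%, 29.97% and 32.9% in PDGFB tumors and 71.4%, 75.6% and 73.3% in normal brain. All 8 tumors were below all 3 normal brains for each share, and NRAS tumor 2 was the NRAS tumor nearest to normal brain each time. The shares use the same values as the calls of these genes and are not separate evidence. A two-sided exact permutation test of the means gave p = 0.0571 for each of the 3 shares in both tumor types against normal brain, the smallest that 4 against 3 libraries allow, or 0.0857 after Benjamini-Hochberg adjustment over 9 tests. The mean differences from normal brain in NRAS tumors were -27.6, -34.7 and -40.6 percentage points for Atp6v0a1, Atp6v0e2 and Atp6v1g2, and those in PDGFB tumors were -19.2, -32.7 and -45.6. NRAS and PDGFB tumors differed by -8.34, -2.05 and 4.96 points in the same order, with exact permutation p of 0.257, 0.8 and 0.629 and adjusted p of 0.331, 0.8 and 0.707, where 4 against 4 could give 0.0286. The difference for Atp6v0a1 was -5.27 points without NRAS tumor 1 and -12.8 points without NRAS tumor 2.

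**Figure D5:**
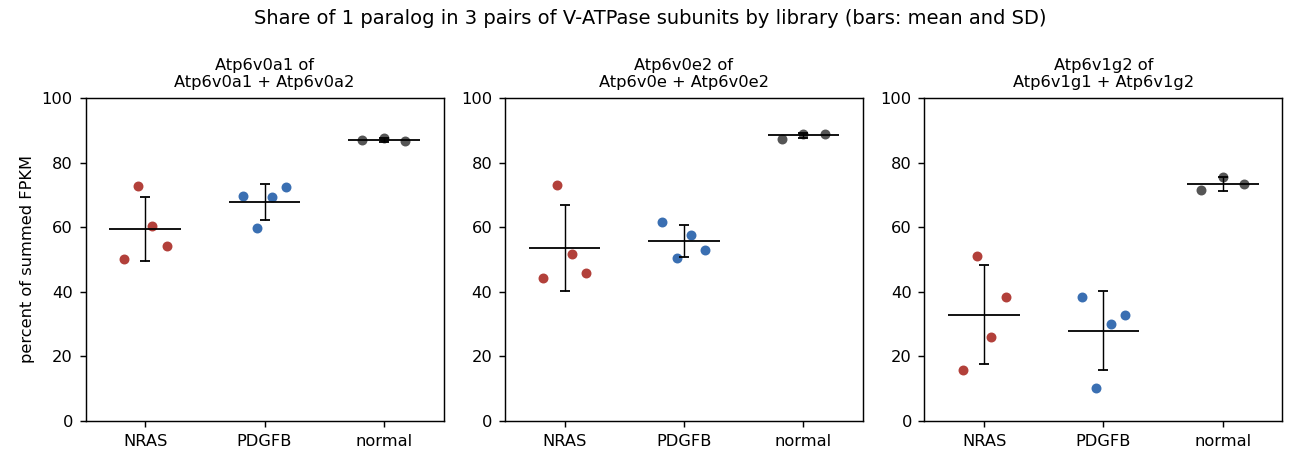
Share in percent of Atp6v0a1 in Atp6v0a1 plus Atp6v0a2, of Atp6v0e2 in Atp6v0e plus Atp6v0e2 and of Atp6v1g2 in Atp6v1g1 plus Atp6v1g2 in each library, with a line at the mean of NRAS tumors, PDGFB tumors and normal brain. Normal brain lies at 86.6% or more, 87.3% or more and 71.4% or more, above every tumor.

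Neuronal genes were lower in tumors as well. Of the neuron markers, 90.9% were called lower in NRAS tumors and 100% in PDGFB tumors, against 30.3% and 29.2% of all genes. The 11 neuron markers summed to 291 to 1327 FPKM in NRAS tumors, 132 to 739 FPKM in PDGFB tumors and 2648 to 3149.8 FPKM in normal brain, none was at 0 in any group, and 10 were called lower in NRAS tumors and 11 in PDGFB tumors. Of 14 synaptic vesicle proteins, which share genes such as Syt1 and Slc32a1 with the neuron markers, 13 were lower in NRAS tumors and 14 in PDGFB tumors, with median log2 fold changes of -2.19 and -2.43, and between the models none passed. Syt1, the calcium sensor of vesicle release, averaged 97.00 ± 65.02 FPKM in NRAS tumors, 61.6 ± 32.7 FPKM in PDGFB tumors and 413 ± 64.1 FPKM in normal brain, and Slc32a1, the vesicular transporter of GABA, 5.66 ± 3.72, 4.73 ± 2.74 and 37.3 ± 4.21 FPKM. Markers of myelinating oligodendrocytes (6) summed to 309.7 to 1528 FPKM in NRAS tumors, 238 to 2184 FPKM in PDGFB tumors and 2336 to 7118 FPKM in normal brain, astrocyte markers (6) to 403 to 544, 228 to 377 and 638 to 721 FPKM, and choroid plexus markers (5) to 1.06 to 37.7, 0.759 to 811 and 827 to 2040.5 FPKM. Oligodendrocyte markers were called lower at 100% in both tumor types, and choroid plexus markers at 100% in NRAS tumors and 80% in PDGFB tumors. Of the astrocyte markers, 33.3% were lower in NRAS tumors, near the share of all genes, and 50% in PDGFB tumors. The part of these cell types in the V-ATPase result was not tested.

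Of 12 factors tested that assemble or regulate the pump or, like Tcirg1, encode its a3 form, 2 were higher and 6 lower in NRAS tumors, 1 higher and 6 lower in PDGFB tumors, and 2 higher and 2 lower between the models, or 16.7% higher and 50% lower in NRAS tumors, 8.33% higher and 50% lower in PDGFB tumors and 16.7% higher and 16.7% lower between the models. All-gene shares were 32% and 30.3%, 29.3% and 29.2%, and 14.3% and 12.2%, so the shares between the models were near the background. Dmxl2, for rabconnectin-3 alpha, and Rogdi belong to a complex that joins V1 to V0. Dmxl2 was lower, at -1.64 for NRAS tumors (adjusted p = 0.000444) and -1.37 for PDGFB tumors (adjusted p = 0.00115), and Rogdi, at -1.40 for NRAS tumors (adjusted p = 0.00429) and -1.73 for PDGFB tumors (adjusted p = 0.0013). Ncoa7, a TLDc protein that binds the pump, was lower, at -0.70 for NRAS tumors (adjusted p = 0.0119) and -1.50 for PDGFB tumors (adjusted p = 0.000172).

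Of 16 genes for the MiT/TFE factors and the platform that controls them, 3 were higher and 3 lower in NRAS tumors, 4 higher and 3 lower in PDGFB tumors, and 1 higher and 2 lower between the models. These are 18.8% higher and 18.8% lower in NRAS tumors, 25% higher and 18.8% lower in PDGFB tumors and 6.25% higher and 12.5% lower between the models. Against normal brain they were below the shares of all genes in both directions. Tfeb, the best-known activator of lysosomal genes, stood at 6.63, 5.45, 5.12 and 6.83 FPKM in NRAS tumors, 4.41, 5.49, 4.90 and 5.84 FPKM in PDGFB tumors and 6.26, 3.93 and 5.72 FPKM in normal brain, and none of its 3 comparisons passed. Tfec, a member of the family found in macrophages, averaged 3.49 ± 2.09 FPKM in NRAS tumors, 0.102 ± 0.0523 FPKM in PDGFB tumors and 0.0295 ± 0.0255 FPKM in normal brain, with a log2 fold change of 1.93 in NRAS tumors. Rragb, a Rag GTPase, was lower, at -1.72 for NRAS tumors (adjusted p = 0.000126) and -1.04 for PDGFB tumors (adjusted p = 0.00195). Fnip2, a folliculin partner, was higher in PDGFB tumors by 0.88 (adjusted p = 0.00449).

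Of 12 genes for mannose 6-phosphate tagging and sortilin sorting, which bring hydrolases to the lysosome, 4 were higher and 4 lower in NRAS tumors, 1 higher and 4 lower in PDGFB tumors, and 2 higher and 1 lower between the models, or 33.3% higher and 33.3% lower in NRAS tumors, 8.33% higher and 33.3% lower in PDGFB tumors and 16.7% higher and 8.33% lower between the models. Shares of all genes were 32% and 30.3%, 29.3% and 29.2%, and 14.3% and 12.2%. Apart from the few higher calls in PDGFB tumors, the list lay near these shares. Sort1, for sortilin, was lower, at -1.88 for NRAS tumors (adjusted p = 0.00047) and -1.95 for PDGFB tumors (adjusted p = 0.000368). Nagpa, which uncovers the mannose 6-phosphate tag, was higher by 1.11 for NRAS tumors (adjusted p = 0.000182) and 0.76 for PDGFB tumors (adjusted p = 0.00143). The receptors Igf2r and M6pr were higher in NRAS than in PDGFB tumors by 0.88 (adjusted p = 0.0323) and 0.67 (adjusted p = 0.0301).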

How the data were processed

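Processed RNA sequencing values of 4 NRAS tumors, 4 PDGFB tumors and 3 normal mouse brains were used. The authors deposited 1 table of FPKM per gene symbol and library, aligned to mm10, with TopHat2 2.0.13 and Cufflinks 2.2.1 among the tools per the submitters' processing notes, which state no roles. It has no counts, so depth in reads is unknown and no counting interval is given. Of 24347 rows, 27 with dates in place of symbols were left out. The deposited FPKM of genes at 1 FPKM or more in at least 3 of 11 libraries (14491) were analysed as log2(FPKM + 1) with limma 3.58.1 in R 4.3.3 (1 mean per group over all 11 libraries, variance trend, two-sided, Benjamini-Hochberg adjustment over all genes tested, threshold 0.05). The fit was also run on simulated data with 200 genes changed in NRAS libraries and no other group difference. These data have far more called genes, so that run does not give their error rate. Shares of paralogs were compared by exact permutation in Python 3.11.15. Groups follow the titles. Values per library are given for the 2 most changed called members, at most, of each class and comparison, for the paralog pairs, and for other members a sentence needs. Of each pathway list up to 2 called genes per comparison could be named. Tfeb, Lyz2 and Acp5 were named for their role or level after their values were seen. Counts without the 4 members that passed the filter through 1 side alone were added after the data were seen. Members and lists were chosen with earlier results of these data known. Promoters came from RefSeq tables for GRCm38.p6. Replicate numbers did not pair libraries (correlations of same-numbered deviations -0.499 to 0.158). Alternatives changed the pseudocount, filter, scaling, block, covariates and libraries. Whole reads were not recovered from FPKM, and counts were not tested.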

Additional observations from a re-analysis of the deposited data

Results flagged for a closer look

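In 7 of the 78 groups of 4 tumors that the 39 members give, 1 library stood apart from the other 3 by Dixon's test, where chance gives about 1 in 20. Atp6ap2 was low in NRAS tumor 1 at 68.4 FPKM, and Atp6v0e2 was high in NRAS tumor 2 at 142 FPKM. PDGFB tumor 2 was high for Atp6v0d2 at 0.424 FPKM and for Lamp2 at 76.7 FPKM, and low for Ctsk at 2.76 FPKM. PDGFB tumor 4 was high for Ctsh at 11.2 FPKM and for Ctsz at 88.9 FPKM.

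For 16 members the change from normal brain differed between the models by the direct test of NRAS against PDGFB tumors. The cathepsin differences on the log2 scale were 3.14 for Ctss, 2.43 for Ctsc, 2.18 for Ctsh, 2.01 for Ctsz, 1.79 for Ctse, 1.12 for Ctsb, 1.04 for Ctsl, 0.81 for Ctsa, 0.80 for Ctso and -1.08 for Ctsk. Among membrane proteins and pump subunits they were 2.02 for Laptm5, 1.25 for Atp6v0d2, 0.85 for Lamp2, 0.59 for Atp6v1f, 0.55 for Lamp1 and 0.46 for Laptm4a. Among these, Ctse passed the filter on low values only through tumors. Atp6v0d2 passed it only through NRAS tumors, so the filter favored its difference between the models. Ctsg, which failed the filter, stood at 14.4 FPKM in NRAS tumor 4 and was listed at 0 in normal brain.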

How the results depend on the processing

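Over the alternatives, the direction of all but 1 of the called member changes was kept: Ctse in PDGFB tumors, 0.84 as reported, was -0.0137 with the title number series added to the fit (adjusted p = 0.983). That covariate also left 11 members called in PDGFB tumors against normal brain (1 higher and 10 lower, 28.2%) in place of 27, and 4768 of all genes (32.9%) in place of 8470. Ctsc, Ctsf, Ctsz, Lamp5, Laptm4a, Atp6v0a1, Atp6v1c2, Atp6v1e1 and Atp6v1g2 lost their PDGFB calls under it alone. The cause was not tested. Leaving out 1 library at a time gave 31 to 35 called members in NRAS tumors against normal brain, 21 to 29 in PDGFB tumors against normal brain, and 10 to 19 between the models, the 10 without PDGFB tumor 3. In the same omissions 53% to 65%, 49.5% to 61.1% and 17.8% to 29.1% of all genes were called. The difference between the models in the share of Atp6v0a1 ranged over -12.8 to -5.27 points when 1 library was left out. That of Atp6v0e2 ranged over -8.53 to 1.10 points (1.10 without NRAS tumor 1 and 0.604 without NRAS tumor 4). That of Atp6v1g2 ranged over -1.14 to 10.7 points (-1.14 without NRAS tumor 2 and -0.912 without PDGFB tumor 2). With the replicate number as a block, 33, 22 and 15 members were called in NRAS tumors against normal brain, PDGFB tumors against normal brain and NRAS against PDGFB tumors (56.6%, 54.1% and 22.4% of all genes). Leaving out small RNA genes moved the median of all genes in NRAS tumors to -0.12, against 0.01 as reported, and that of the members to -0.11; quantile normalization moved the median of all genes between the models to -0.11, against -0.04. Within the lower title number series 28 members (71.8%, and 44.9% of all genes) were called in NRAS tumors against normal brain, and within the higher one 14 (35.9%, and 22% of all genes) between the models. The 78 called member changes had 1611 alternative values, of which 155 lost the call and 1 reversed, and the 39 uncalled changes had 807, of which 35 gained one. Depth is unknown, so low members such as Atp6v0d2, Ctse and Ctsw carry an unknown counting error.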
